A study of Arabidopsis thaliana with 12 samples.

Results

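This comparison set the wild type of Arabidopsis thaliana apart from every other genotype of an RNA-seq study of KLU. The other genotypes were a loss-of-function mutant and both of the independent overexpression lines, and the comparison looked for transcripts that were shifted the same way in all of them although KLU itself was shifted in opposite ways. Of 12 libraries, 3 came from Col-0 and 9 from the other genotypes (3 each of klu, 35S:KLU1 and 35S:KLU2). Each library was made from the rosette of 1 plant at 35 days, grown with 8 h light and 16 h dark, and the labels name leaf as the tissue. The klu mutant carries a T-DNA insertion in the Col-0 background. Both 35S:KLU lines were made by transforming Col-0 with KLU fused to GFP under the 35S promoter, which drives expression in most tissues, and transformants were selected on kanamycin. All 9 of these plants therefore descend from T-DNA lines and the 3 Col-0 plants do not, and the seed stock and the growth history of each line cannot be told apart from its genotype.

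KLU (AT1G13710, also CYP78A5) encodes a cytochrome P450 that promotes the growth of leaves, petals and seeds, and it is expressed mainly at the margins of meristems and young organs. The genes sought here were higher, or lower, than in Col-0 both where KLU transcript was lost and where it was in excess, and genes called without that pattern are described to show where it was not met.

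KLU followed the labels. It was at 6.26, 5.42 and 5.53 FPKM in Col-0, at 0.13, 0.13 and 0.22 in klu, and between 1728.75 and 2890.32 in the 6 overexpressors. FPKM scales the fragments of a transcript by its length and by the size of the library. All differences are given in log2(FPKM + 1), and genes with low values have changes that this scale understates. FPKM summed to 1110149 to 1194277 per library, and steps between low values put the value of 1 fragment at 0.89 to 1.44 times that in Col-0 replicate 1. The klu replicate 1 library stood apart, with 18684 genes at 0.5 FPKM or more against 19053 to 19230 in the other 11 libraries, and with the lowest sum of the 4 shoot meristem markers, 0.06 FPKM. The numbers of called genes, of shared shifts and of genes called in all 3 comparisons are given with and without it, and other counts with all 12 libraries only. Of 32 marker genes for cell types of the rosette and of other organs, 18 were tested and 0 were called (adjusted p under 0.05). The 5 mesophyll markers summed to 39923 to 44364 FPKM in Col-0 and to 34652 to 50769 in the others, and the 6 flower markers to at most 1.04 and 1.68. The pooled range hides a split, since LHCB1.4, LHCB2.1, LHCB3 and CA1 were lower in every overexpressor than in every Col-0 library. RBCS1A overlapped. LHCB3 was at 7127.29 to 8233.94 FPKM in Col-0, 7361.92 to 9061.03 in klu and 5724.87 to 6391.47 in the lines. In whole rosettes, fewer cells of a type and less RNA per cell cannot be told apart.

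Of 19660 tested genes, 954 (4.85%) differed between Col-0 and the mean of the 3 other genotypes at an adjusted p under 0.05, 484 of them higher in the others (2.46%) and 470 lower (2.39%). Most of these calls were not shared shifts. In 559 of the 954 all 3 genotype means lay on the same side of Col-0, 244 above and 315 below, and in 395 they did not. Levels did not overlap between the 3 Col-0 libraries and the 9 others in 285 tested genes (1.45%). A shared shift, meaning a called gene with all 3 means on one side and no overlap, was found for 132 genes (0.671%), 53 higher and 79 lower. Leaving out Col-0 replicate 1 or 2 gave 48 and 39 shared shifts, leaving out klu replicate 1 gave 724 (505 higher and 219 lower), and leaving out klu replicate 3 gave 269. The number of all called genes moved to 118, 122 and 283 without Col-0 replicates 1, 2 and 3, to 2581 and 613 without klu replicates 1 and 2, to 581, 581 and 536 without 35S:KLU1 replicates 1, 2 and 3, and to 504 and 472 without 35S:KLU2 replicates 1 and 3. A model with only 2 groups of libraries, which counts the spread between genotypes as error, called 10 genes (0.0509%), all of which were among the 132, and 1846 genes at an unadjusted p under 0.05. Of the 10, AT4G15242, NCED2, SAG12 and AT2G05995 could not pass the filter on low values (0.5 FPKM in 3 or more libraries) without Col-0. AT1G27565 passed it through the others alone. The filter thus fixed the direction of these genes, and their calls are no support for it.

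The shared shifts were mostly small. They were under 0.5 in 84 genes, between 0.5 and 1 in 35 and at least 1 in 13. Among these 13, the filter on low values fixed the direction of AT1G27565, which could only be higher. It also fixed that of AT4G15242, SAG12, PGAZAT, AT2G05995, AT1G62760 and SADHU3-2, which could only be lower. The median was 0.37 for the 53 higher genes and -0.46 for the 79 lower genes, against 0.02 over all tested genes. By the median the klu mutant was shifted least. The median over the higher genes was 0.23 in klu, 0.39 in 35S:KLU1 and 0.45 in 35S:KLU2, and over the lower genes it was -0.25, -0.57 and -0.50. In 103 of the 132 genes klu lay nearer to Col-0 than both lines, and in 15 it lay farther. The same count over all tested genes is not given here, so these numbers do not set the 132 apart. The contrast that chose the 132 averaged klu with both lines, so the lines weighed more in it than klu. Between klu and the mean of both lines, a comparison that does not use Col-0, 52 of the 132 were called, against 26.6% of all tested genes. Each genotype on its own gave 12 calls against Col-0 in klu (0.0610%), 2294 in 35S:KLU1 (11.7%) and 3150 in 35S:KLU2 (16.0%). Of the 132 genes, 7 were called in klu, 117 in 35S:KLU1 and 126 in 35S:KLU2, but all 132 were chosen on a contrast of these same values. These 3 comparisons share the Col-0 libraries, so an unusual Col-0 value enters all of them.

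Only 9 genes were called against Col-0 in klu and in each line in the same direction, 3 higher and 6 lower, and 7 of them were among the 132. Leaving out Col-0 replicate 1 or 2 gave 4 such genes, leaving out klu replicate 2 gave 5, and leaving out klu replicate 1 gave 8. Of the 9, 3 are annotated as non-coding RNAs. In AT1G27565, AT4G15242 and SAG12 the filter on low values fixed the direction.

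**Figure D1:**
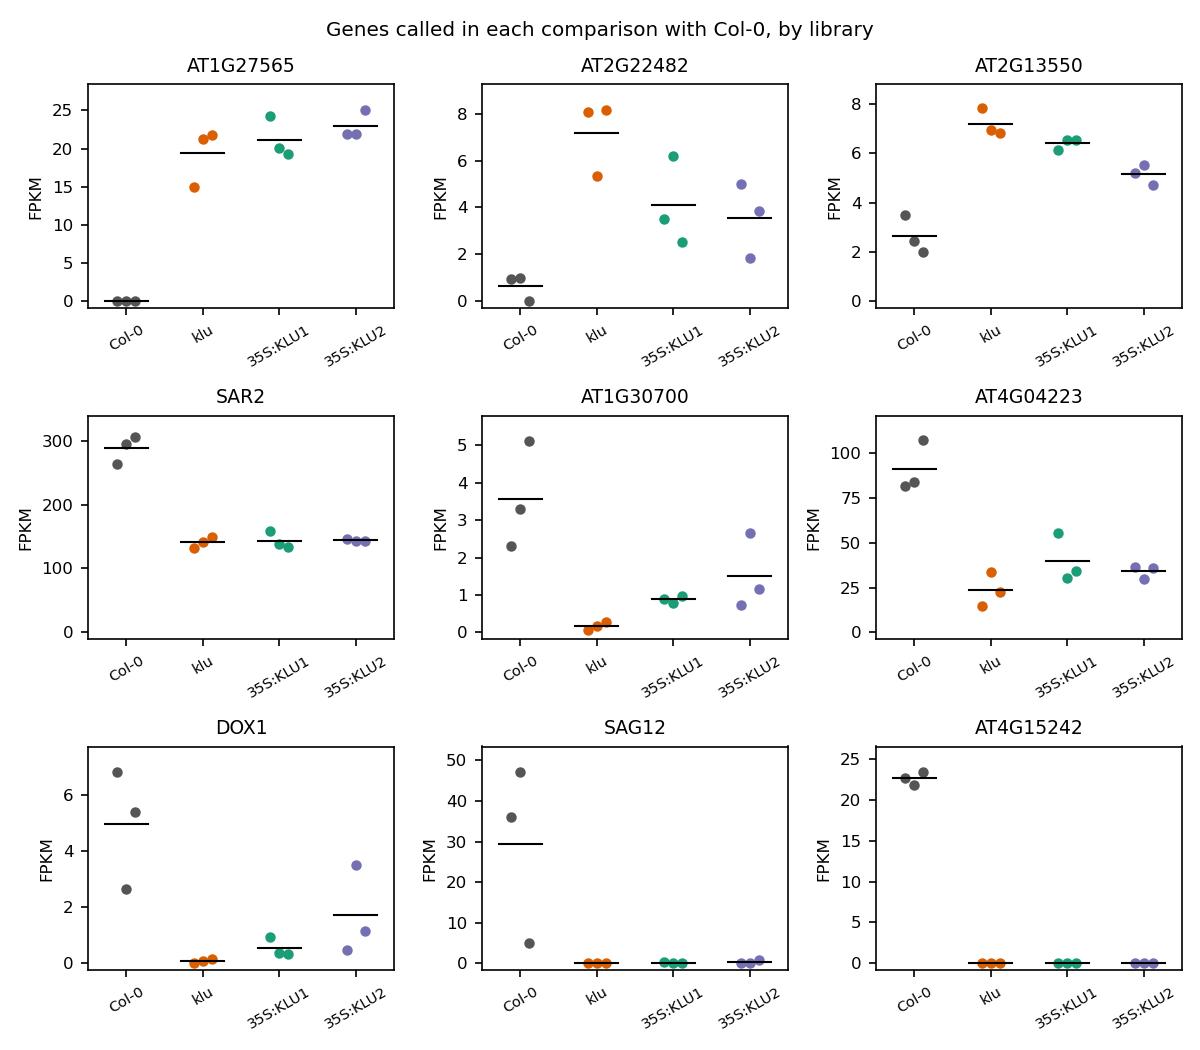
FPKM of the 9 genes called against Col-0 in klu, 35S:KLU1 and 35S:KLU2, 1 panel per gene with its own axis from 0, 1 point per library and a line at the mean of 3 libraries. AT1G27565 is at 0 in Col-0 only, AT4G15242 is at 0 in the 9 other libraries, and SAR2 lies at 132.06 to 159.29 FPKM in all 9 against at least 264.1 in Col-0.

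AT1G27565, a short protein-coding gene of unknown function on chromosome 1 (chr1:9574550-9575189, plus strand, TAIR10.1), was listed at 0 in all 3 Col-0 libraries and passed the filter on low values through the others alone. It was at 14.95, 21.29 and 21.84 FPKM in klu, at 24.26, 20.04 and 19.25 in 35S:KLU1 and at 21.94, 21.92 and 25.04 in 35S:KLU2 (adjusted p = 2.24e-10). The 9 libraries were thus alike, with no difference called between klu and the lines (-0.19, SE 0.12, adjusted p = 0.25). The p against Col-0 is no support for the direction, since AT1G27565 could be tested only because the others were high. The genes next to it on either side were at or near 0 in all libraries, and the nearest tested neighbours, AT1G27540 and AT1G27590, were at 18.98 to 25.54 and 3.85 to 6.01 FPKM without a split between Col-0 and the rest.

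The whole spliced transcript of AT1G27565, 515 bases, has a near-identical copy in AT1G52905, a gene farther along the same chromosome (chr1:19706047-19706885, plus strand). Both coding sequences have 144 bases, and 3 of them differ. They are shown because fragments of 1 copy can be assigned to the other. The sequences are those of the TAIR10.1 reference from RefSeq, not of the sequenced plants, and capitals mark the bases that differ.
AT1G27565: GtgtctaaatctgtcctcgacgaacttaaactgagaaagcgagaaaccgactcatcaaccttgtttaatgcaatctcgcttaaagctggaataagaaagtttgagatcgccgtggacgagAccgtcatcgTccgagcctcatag
AT1G52905: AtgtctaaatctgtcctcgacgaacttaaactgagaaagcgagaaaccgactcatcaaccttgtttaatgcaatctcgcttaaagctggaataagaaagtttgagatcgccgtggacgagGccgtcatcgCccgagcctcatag

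With AT1G27565 first and positions counted from the first coding base, the differences are G1A, A121G and T131C. AT1G52905 was detected in every library, at 32.45, 29.1 and 28.08 FPKM in Col-0, at 27.8, 32.96 and 43.12 in klu and at 37.34 to 51.06 in the overexpressors. Its difference was 0.39 (SE 0.12, adjusted p = 0.0781) and its levels overlapped. Summed over both copies, Col-0 lay at 28.08 to 32.45 FPKM and the 9 others at 42.75 to 76.1, so the split between Col-0 and the rest was also present in the sum.

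AT4G15242, annotated as a non-coding RNA (chr4:8705787-8706997, minus strand, TAIR10.1), showed the opposite pattern. It was at 22.69, 21.8 and 23.41 FPKM in Col-0 and was listed at 0 in all 9 other libraries (adjusted p = 1.39e-11). Since it passed the filter on low values through Col-0 alone, it could be tested only with all 3 Col-0 libraries. It was tested only because Col-0 was high, and its p is no support for the direction. The adjoining AT4G15240 was at 6.38 to 9.01 FPKM in all libraries. The first 300 of the 1211 bases of AT4G15242 are given, as those of the transcript that only Col-0 showed.
AT4G15242: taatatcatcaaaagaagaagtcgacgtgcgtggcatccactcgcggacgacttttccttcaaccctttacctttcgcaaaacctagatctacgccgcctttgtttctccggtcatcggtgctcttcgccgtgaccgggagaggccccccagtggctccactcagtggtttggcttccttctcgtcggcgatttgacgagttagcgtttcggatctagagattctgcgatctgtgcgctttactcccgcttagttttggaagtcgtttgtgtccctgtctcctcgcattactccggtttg

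They lie at chr4:8706698-8706997. The longest matches elsewhere in the genome were 67.6% identical over 854 bases, at AT5G15360, and 64.9% over 754 bases, at AT4G17585. AT4G15245, a gene of the reference on the opposite strand that overlaps AT4G15242 by 484 bases, was not analysed here, and whether fragments were counted by strand is not given in the sources used here. No other gene with at least 0.5 FPKM throughout on one side was at 0 throughout on the other. A further 8 genes were above 0 in all libraries of one side and at 0 on the other, but at most at 0.55 FPKM, among them CKX2, a cytokinin oxidase gene, at 0.2, 0.04 and 0.17 in Col-0 only.

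SAR2 (AT4G02080, chr4:921447-922759) encodes a small GTPase of the SAR1 type, which recruits the COPII coat for transport from the endoplasmic reticulum to the Golgi. It was at 264.1, 294.89 and 305.74 FPKM in Col-0, at 132.06, 141.64 and 149.67 in klu, at 159.29, 138.46 and 133.4 in 35S:KLU1 and at 145.78, 142.75 and 143.75 in 35S:KLU2. The 9 plants formed a narrow band below every Col-0 plant, with a difference of -1.01 (SE 0.07, adjusted p = 1.64e-05). The difference was -1.024 in klu, -1.001 in 35S:KLU1 and -0.993 in 35S:KLU2. The related genes SAR1B, SARA1A and AT3G62560 were not called (0.16, 0.16 and -0.04, adjusted p = 0.177, 0.635 and 0.785). The summed level of the family was not tested.

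Genes beside SAR2 were shifted as well. PIT1 (AT4G02075), the tested gene next to it, encodes a RING-type zinc finger protein. It was at 9.24, 8.3 and 8.8 FPKM in Col-0, at 5.26, 5.43 and 4.8 in klu and at 2.49 to 5.24 in the lines, a difference of -0.94 (SE 0.12, adjusted p = 0.00375). Some 9 and 10 tested genes away, the non-coding RNA gene AT4G02005 was higher by 0.59 (SE 0.09, adjusted p = 0.00804) and AT4G02000 by 0.66 (adjusted p = 0.018). The first lost its call without Col-0 replicate 1 (adjusted p = 0.0534) and the other without Col-0 replicate 1 or 2 (largest adjusted p = 0.1). GPAT3, a glycerol-3-phosphate acyltransferase gene 16 tested genes away, was lower (-0.36, adjusted p = 0.0147), a call that was lost without Col-0 replicate 1 or 2 (largest adjusted p = 0.0896). No window of 25 consecutive tested genes held more than these 5 shared shifts, of which GPAT3 (AT4G01950) was the first and SAR2 the last along the chromosome. MSH6 and PRL, the tested genes before PIT1, lay at -0.16 and -0.17 and were not called, and neither was AT4G02090 on the other side (-0.34, adjusted p = 0.315).

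**Figure D2:**
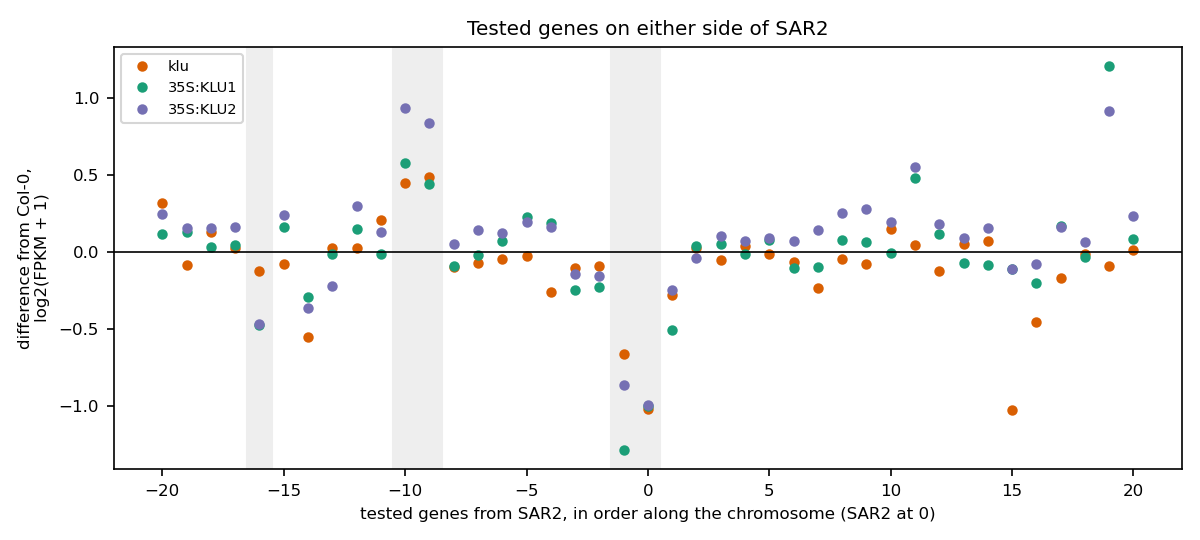
Difference from Col-0 in log2(FPKM + 1) for SAR2 and the 20 tested genes on each side of it, in chromosomal order, with 1 point per gene for klu, 35S:KLU1 and 35S:KLU2 and grey bands at genes with a shared shift. SAR2 (-1.024, -1.001 and -0.993) and PIT1 next to it are low in all 3 genotypes, and the bands at -16, -10 and -9 mark GPAT3, AT4G02000 and AT4G02005.

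A second group of neighbours lay on chromosome 5, where 3 tested genes in a row were lower in the 9 plants, 1 of which (AT5G34790) passed the filter on low values through Col-0 alone and could only be lower. AT5G34790 and AT5G34800 are annotated as transposable element genes, and AT5G34795 lies between them. AT5G34800 was at 1.4, 1.29 and 1.44 FPKM in the Col-0 plants and at 0.32 to 0.71 in the others (-0.65, SE 0.10, adjusted p = 0.0073). AT5G34795 was lower to a like extent (-0.65, adjusted p = 0.0111) and AT5G34790 less so (-0.50, adjusted p = 0.0218). AT5G34795 lost its call when any 1 Col-0 replicate was left out (largest adjusted p = 0.0576) and shares 66.4% of its transcript with AT5G29037. The tested genes on either side, AT5G33370 and PAP26, were not called. Over whole chromosomes, shared shifts made up between 0.5% (chromosome 2) and 0.806% (chromosome 1) of tested genes.

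AT4G04223, a non-coding RNA gene (chr4:2036511-2037816), was at 81.42, 83.9 and 107.36 FPKM in Col-0, at 14.83, 33.39 and 22.77 in klu, at 55.31, 30.18 and 34.08 in 35S:KLU1 and at 36.67, 29.9 and 35.78 in 35S:KLU2. The difference was -1.52 (SE 0.21, adjusted p = 0.00504), and klu was lower than the lines (-0.66, adjusted p = 0.0478). AT5G38005, another non-coding RNA gene, on chromosome 5, was lower too, at 2.67, 2.37 and 2.93 FPKM in Col-0 against 0.27 to 1.62 in the 9 others (-0.90, SE 0.18, adjusted p = 0.0202, and up to 0.0888, with the call lost, when any 1 Col-0 replicate was left out). Both transcripts are related, with 83.9% identity over 542 aligned bases. A stretch of 120 bases of each is given to show how alike they are, with the 5 bases that differ in capitals.
AT4G04223: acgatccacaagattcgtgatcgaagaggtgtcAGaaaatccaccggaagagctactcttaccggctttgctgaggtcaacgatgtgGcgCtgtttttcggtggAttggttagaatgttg
AT5G38005: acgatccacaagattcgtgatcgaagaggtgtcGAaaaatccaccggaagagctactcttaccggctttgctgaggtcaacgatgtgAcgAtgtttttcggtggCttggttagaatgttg

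The first stretch lies at chr4:2036662-2036781 and the other at chr5:15155185-15155304. AT4G04223 also matches AT3G56210, an ARM repeat protein gene on chromosome 3, over its whole length, with 99.4% identity over the longest stretch of 310 bases, outside the coding sequence. AT3G56210 did not show the pattern. It was at 22.88, 23.05 and 22.55 FPKM in Col-0, at 15.84 to 18.53 in klu and at 23.77 to 30.79 in the lines (0.01, SE 0.09, adjusted p = 0.95). How fragments common to these genes were divided between them was not tested.

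**Figure D3:**
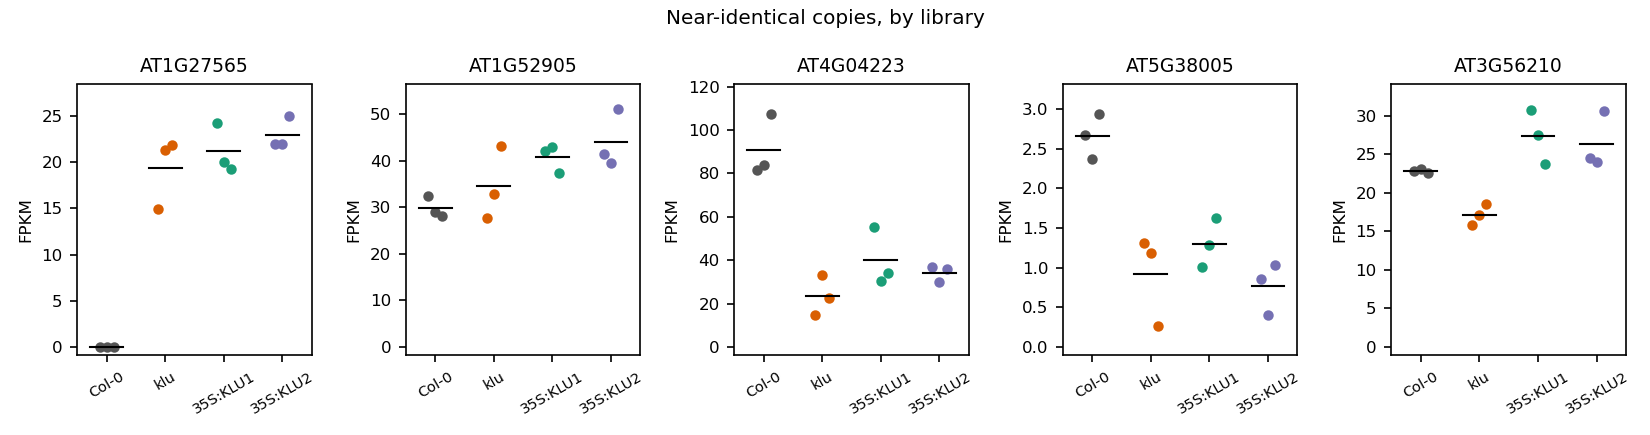
FPKM of AT1G27565 and its copy AT1G52905, and of the related AT4G04223, AT5G38005 and AT3G56210, 1 point per library and a line at the mean of 3 libraries, each panel with its own axis from 0. AT1G52905 is present in Col-0 at 28.08 to 32.45 FPKM where AT1G27565 is at 0, and AT3G56210 does not share the drop of AT4G04223.

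SAG12 (AT5G45890), a cysteine protease gene widely used as a marker of late leaf senescence, was at 36.09, 47.13 and 5.11 FPKM in Col-0. It was listed at 0 in all klu libraries, at 0.35, 0 and 0.07 FPKM in the 35S:KLU1 plants and at 0, 0 and 0.8 in 35S:KLU2 (adjusted p = 0.00154). Col-0 replicate 3 was far below the other 2 Col-0 plants and still above all 9 others. Whichever library was left out, the adjusted p was at most 0.0143. Among the 9 others only 35S:KLU2 replicate 3 reached 0.5 FPKM, so SAG12 passed the filter on low values only because Col-0 was high. Its p is thus no support for the direction. PGAZAT (AT2G41850), a polygalacturonase gene of abscission zones also known as ADPG2, was at 1.31, 1.61 and 12.72 FPKM in the Col-0 plants and at 0 to 0.17 in the 9 others (adjusted p = 0.0188). It passed the filter on low values through Col-0 alone, so that it could be tested only because Col-0 was high, and its p is no support for the direction. Here the third Col-0 plant was the highest. PES1, a phytyl ester synthase gene induced in senescing leaves, was at 10.34 to 13.57 FPKM in Col-0 and at 7.09 to 8.6 in the rest (-0.55, SE 0.09, adjusted p = 0.00757, and 0.0524 without Col-0 replicate 1). Of 13 tested genes on the list of leaf senescence, SAG12 was the only one with a shared shift, 1 more was called (15.4% called, against 4.85% of all tested genes), and the median over the list was -0.07. The called gene, JUB1, was at 5.45 to 5.56 FPKM in Col-0, at 3.54 to 5.67 in klu and at 15.76 to 19.71 in the lines.

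The remaining genes called in all 3 comparisons were lowly expressed. AT2G13550, of unknown function, was at 3.48, 2.44 and 1.99 FPKM in Col-0, at 7.84, 6.92 and 6.8 in klu, at 6.13, 6.53 and 6.53 in 35S:KLU1 and at 5.21, 5.54 and 4.7 in 35S:KLU2, a difference of 1.003 (SE 0.11, adjusted p = 0.00154). Its mean was highest in klu, although klu and the lines were not called different in this gene, and AT2G13555, which overlaps it on the opposite strand, was not analysed here. The non-coding RNA gene AT2G22482 was at 0.95, 0.98 and 0 FPKM in the Col-0 plants and at 1.83 to 8.15 in the 9 others (1.82, SE 0.28, adjusted p = 0.00753). It lies inside another annotated RNA gene on the same strand, AT2G07585, which was not analysed here.

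DOX1 (AT3G01420), which encodes an alpha-dioxygenase that oxidises fatty acids, and AT1G30700, a berberine bridge enzyme-like gene, were lower in all 3 genotypes but overlapped with Col-0. DOX1 was at 6.83, 2.66 and 5.4 FPKM in Col-0, at 0, 0.08 and 0.14 in klu, at 0.94, 0.37 and 0.32 in 35S:KLU1 and at 0.46, 3.52 and 1.16 in 35S:KLU2. The difference was -1.85 (SE 0.30, adjusted p = 0.00847, and 0.0576 without Col-0 replicate 1). AT1G30700 was at 2.31, 3.29 and 5.12 FPKM in the Col-0 plants and at 0.07 to 0.27 in klu, and klu lay below the lines (-0.86, adjusted p = 0.0155). In both genes 35S:KLU2 replicate 2 was the library that reached into the range of Col-0.

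Among the 132 genes, 23 were tested and called whichever 1 of the 12 libraries was left out, 7 higher and 16 lower. The call is of the mean of the 3 other genotypes, not of klu. Against Col-0 klu alone was called in only 7 of the 132, so most of the 23 were not called in klu. Not called were, for example, AT1G18020, AT1G14200 and AT1G26800 (adjusted p = 0.874, 0.85 and 0.686). The same held for PG2, PIT1, TINY2 and ERF6 (adjusted p = 0.58, 0.275, 0.257 and 0.374). SAG12 and AT2G05995 are among the lower genes of the 23, and the filter on low values fixed their direction. Dropping Col-0 replicate 1, 2 or 3 ended the call of 99, 95 and 81 genes, whereas dropping any 1 of the 9 others ended at most 41. AT1G18020, annotated as an FMN-linked oxidoreductase, was higher, at 40.27, 32.96 and 40.11 FPKM in Col-0, at 41.13 to 44.41 in klu and at 70.75 to 87.6 in the lines (0.72, SE 0.07, adjusted p = 0.0011). The klu plants barely cleared Col-0, and the lines stood well above both. AT1G17990 matches the whole transcript of AT1G18020, and it was not called (0.33, adjusted p = 0.0515). GG1, which encodes a gamma subunit of the heterotrimeric G protein, had the same order, with 40.46 to 41.72 FPKM in Col-0, 44.57 to 49.33 in klu and 53.02 to 70.22 in the lines (0.45, SE 0.07, adjusted p = 0.00753). The RING/U-box protein genes AT1G26800 and AT1G14200 were higher by 0.59 and 0.54 (adjusted p = 0.00757 and 0.00787).

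Lower genes of this firm group included several of the cell wall. GH9C2, an endoglucanase-type glycosyl hydrolase gene, was at 97.28, 105.83 and 95.07 FPKM in Col-0, at 84.45, 90.32 and 90.4 in klu and at 55.91 to 65.14 in the lines (-0.54, SE 0.06, adjusted p = 0.00191). PG2, a polygalacturonase gene, was at 88.18 to 100.09, 73.84 to 83.37 and 58.19 to 68.38 FPKM in the same order (-0.46, SE 0.06, adjusted p = 0.00481). FLA16, which encodes a fasciclin-like arabinogalactan protein, changed by -0.40 (SE 0.05, adjusted p = 0.00375). In all 3 genes klu lay between Col-0 and the lines. ACA1 (AT3G52720), an alpha carbonic anhydrase gene, and ABCC14, an ABC transporter gene, differed by -0.59 and -0.47 (adjusted p = 0.00529 and 0.00599), again with klu in between. The actin-binding calponin homology gene AT5G48460 was at 16.7 to 17.31 FPKM in Col-0 and at 15.2 to 16.66 in klu just below it, and was at 9.69 to 10.82 in the lines.

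In a further group klu and the lines were not called different. AT2G05995, a non-coding RNA gene, was at 3.52, 1.52 and 1.75 FPKM in the Col-0 plants and at 0 to 0.58 in the 9 others, with -1.29 in klu, -1.32 in 35S:KLU1 and -1.56 in 35S:KLU2 (adjusted p = 0.00323 over all). TINY2, a transcription factor gene of the DREB type, was at 7.11, 8.6 and 7.82 FPKM in Col-0, at 5.48, 4.72 and 4.23 in klu and at 3.11 to 4.71 in the lines (-0.79, SE 0.11, adjusted p = 0.00452). ERF6, an ethylene response factor gene, was at 11.95 to 12.9, 7.6 to 9.1 and 4.65 to 8.23 FPKM in the same order (-0.71, SE 0.11, adjusted p = 0.007). NCED2, a gene of abscisic acid synthesis, was at 0.76, 0.83 and 0.58 FPKM in the Col-0 plants and at 0 to 0.14 elsewhere (adjusted p = 0.00504), and it passed the filter on low values through Col-0 alone, as did 5 of the 132 genes in all. In those 5 none of the 9 others reached 0.5 FPKM. Further lower genes, among them SAG12, AT2G05995, AT1G62760 and SADHU3-2, reached it in too few of the 9 others to pass without Col-0. Their direction was fixed by the filter as well. GLYI7 and GLYI4, of the glyoxalase I family that detoxifies methylglyoxal, were at 2.23 to 3.8 and 1.68 to 2.25 FPKM in Col-0 and reached at most 1.41 and 1.19 in the others (adjusted p = 0.0166 and 0.0139). Both lost their calls when any 1 Col-0 replicate was left out (largest adjusted p = 0.0777 and 0.0651).

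**Figure D4:**
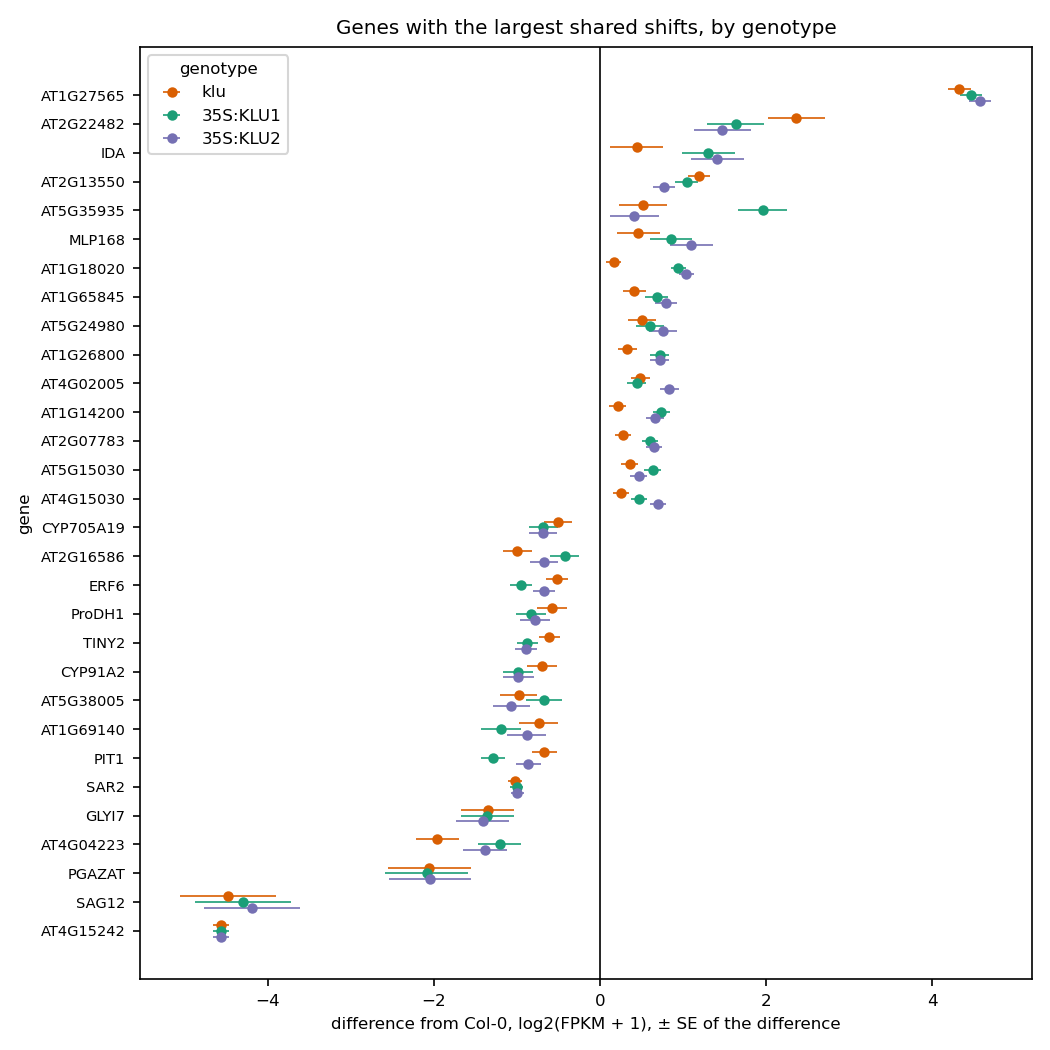
Difference from Col-0 in log2(FPKM + 1), with its SE from the fit (n = 3 libraries per genotype), of the 15 higher and 15 lower shared-shift genes with the largest differences and a mean of at least 1 FPKM, 1 point each for klu, 35S:KLU1 and 35S:KLU2. The 3 points nearly coincide in SAR2 and AT4G15242, klu lies nearest to 0 in AT1G18020 (0.17 against 0.94 and 1.04), and values of genes at 0 on one side depend on the added 1 FPKM.

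Not every gene with a large shared shift was firm. IDA, which encodes the peptide that controls floral organ abscission, was at 0.51, 0.25 and 0.69 FPKM in the Col-0 plants and at 0.74 to 4.46 in the 9 others (1.05, SE 0.26, adjusted p = 0.0415), a call that ended in 10 of the 12 fits that left out 1 library, all but those without klu replicate 1 or 35S:KLU1 replicate 2 (largest adjusted p = 0.186). The transposable element gene AT5G35935 was at 0.02, 0.02 and 0.03 FPKM in Col-0, at 1.81, 0.07 and 0.05 in klu, at 2.71 to 3.28 in 35S:KLU1 and at 0.31 to 0.43 in 35S:KLU2. Its call (0.96, adjusted p = 0.0421) held only in the fits without klu replicate 1, 2 or 3, with a largest adjusted p of 0.154. ProDH1, the proline dehydrogenase gene AT3G30775, was at 4.79, 4.07 and 5.75 FPKM in the Col-0 plants and at 1.62 to 3.38 in the others (-0.73, SE 0.15, adjusted p = 0.0215), and the call was lost when any 1 Col-0 replicate was left out (largest adjusted p = 0.0979).

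Of the 134 genes with a shared shift or called in all 3 comparisons, 9 had a near-identical copy in TAIR10.1 (at least 95% identity over at least 50% of the transcript), and their values are uncertain where fragments fit both. Besides AT1G27565, AT1G18020, AT4G04223 and AT5G34795 these were AT4G02000, AT2G16586, AT2G07783, AT1G72920 and the ribosomal RNA gene AT3G41768.

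Gene lists of pathways are given beside the share called over all tested genes, 4.85% (2.46% higher and 2.39% lower). In cold and dehydration genes, 6 of 18 tested were lower and 0 higher (33.3% called). In salicylic acid defence, 5 of 18 were higher and 0 lower (27.8%), and in cytokinin signalling and metabolism 6 of 27 were lower and 0 higher (22.2%). None of the called genes of these 3 lists had a shared shift. PR1, a marker of salicylic acid responses, was at 327.66 to 549.53 FPKM in Col-0, at 106.82 to 549.64 in klu and at 2048.1 to 3001.95 in the lines. The cytokinin response regulator gene ARR7 was at 40.55 to 54.6, 35.95 to 54.77 and 16.78 to 22.23 FPKM in the same order, and COR414-TM1, a cold-regulated gene, at 230.94 to 295.81, 182.18 to 307.41 and 104.71 to 149.5. In these genes klu overlapped Col-0 and the lines did not. The list medians were -0.45, 0.41 and -0.24 for cold, salicylic acid and cytokinin genes, and in klu alone they were -0.29, -0.14 and 0.01.

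The share called ran on both sides of 4.85% in the remaining lists. In proline metabolism 1 of 13 was higher and 1 lower (15.4%), the lower one being ProDH1. The higher one, ARGAH2, was at 98.14 to 130.86 FPKM in Col-0, 108.28 to 127.3 in klu and 222.06 to 305.67 in the lines. In jasmonate genes 2 of 27 were higher and 2 lower (14.8%), among them VSP1, a vegetative storage protein gene, at 4.31 to 5.82 FPKM in Col-0, 4.1 to 6.03 in klu and 22.95 to 72.32 in the lines. In nitrogen uptake and assimilation 1 of 23 was higher and 3 were lower (17.4%), among them the glutamine synthetase gene GLN1.4 (-0.80, adjusted p = 0.00237). Single genes were called in the lists of the circadian clock (1 of 20, 5%, higher), flowering time (1 of 18, 5.56%, lower), heat shock (1 of 9, 11.1%, higher) and cysteine-rich receptor-like kinases (1 of 30, 3.33%, higher), and 3 of 113 immune receptor genes (2.65%), 3 of 49 pseudogenes (6.12%) and 2 of 157 F-box genes (1.27%) were called, all higher. No gene of light harvesting and the photosystems was called, of 40 tested. Of 5 tested CYP78A genes, KLU and CYP78A9 were called (40%). KLU is the gene that was altered in all 3 genotypes, so its call comes from the design and the share is no result about the family. CYP78A9 was at 7.56 to 9.19 FPKM in Col-0, 7.75 to 9.93 in klu and 3.94 to 4.95 in the lines. Transposable element genes were called in 7 of 123 (5.69%) and had shared shifts in 5, SADHU3-2, AT5G34790 and AT5G34800 lower and AT3G60170 and AT5G35935 higher. AT5G34790 passed the filter on low values through Col-0 alone, and AT3G60170 and AT5G35935 were under 0.5 FPKM in all Col-0 libraries and passed through the others, so the directions of these 3 were fixed by the filter and their number supports nothing about the list. SADHU3-2 reached 0.5 FPKM in too few of the 9 others to pass without Col-0, so its direction was fixed too. The call of SADHU3-2 ended when any 1 Col-0 replicate was left out (largest adjusted p = 0.0707), and so did that of AT3G60170, which also ended without 3 of the overexpressors (largest adjusted p = 0.119). Genes annotated as other RNA were called in 8 of 192 (4.17%) and had shared shifts in 5, all described above.

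**Figure D5:**
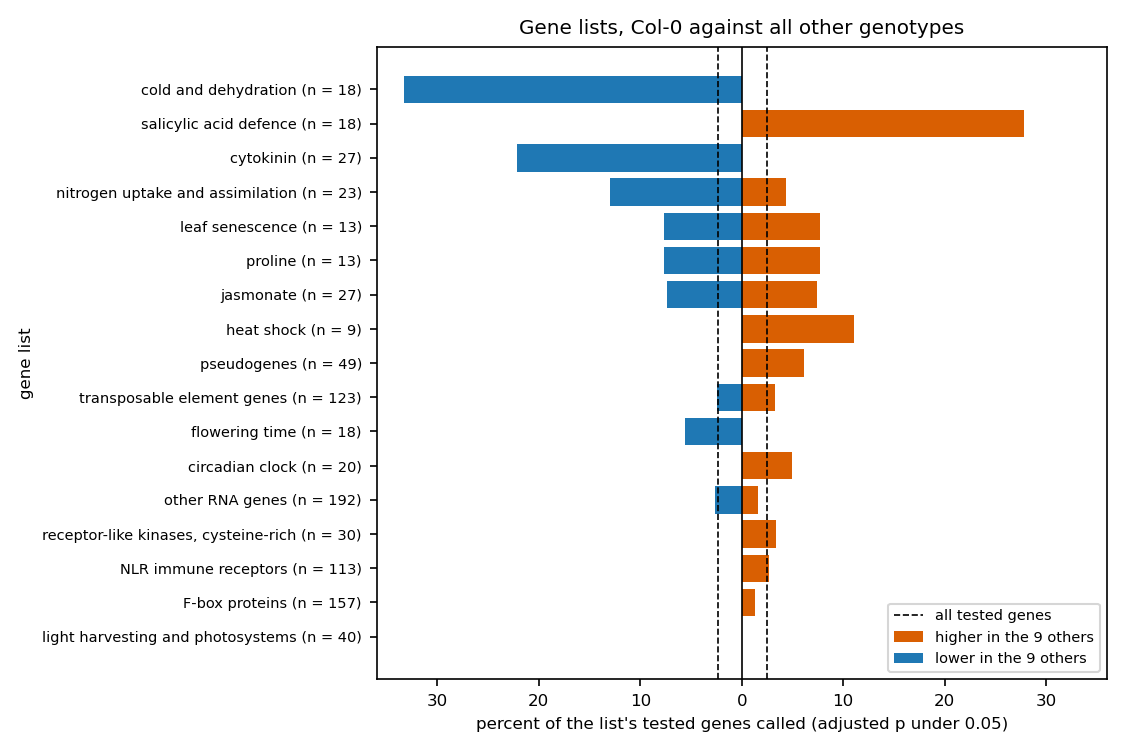
Percent of the tested genes of each list called between Col-0 and the 9 other libraries, to the right for higher and to the left for lower in the others, with n tested beside each name and dashed lines at the shares over all tested genes (2.46% higher, 2.39% lower). Lists with fewer than 9 tested genes, such as the CYP78A family, and lists made after values were seen are not shown. Among the lists shown, cold and dehydration (33.3% lower) and salicylic acid defence (27.8% higher) have the largest shares, and light harvesting and photosystems has none.

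The lists of cell wall, methyltransferase and RING/U-box genes were made after their values were seen, so the counts only describe them. Over all tested genes 2.46% were higher, 2.39% lower and 0.671% had a shared shift. Of 101 tested pectin-modifying enzyme genes, 18 were lower (17.8%) and 0 higher, and 6 of these had a shared shift. Among the 6, PGAZAT and AT1G62760 could not pass the filter on low values without Col-0 and could only be lower. The median over the list was -0.08 in klu, -0.26 in 35S:KLU1 and -0.22 in 35S:KLU2. Of 24 tested genes of the cellulose synthase family, 3 were lower (12.5%), among them the primary wall subunits CESA1, at 129 to 133.55 FPKM in Col-0 and 107.52 to 123.06 in the others, and CESA5, at 55.37 to 59.51 and 41.85 to 54.02. CESA1 lost its call in 7 of the 12 fits that left out 1 library (largest adjusted p = 0.128), and CESA5 without Col-0 replicate 2 or 3 (largest adjusted p = 0.0676). Of 112 S-adenosylmethionine-dependent methyltransferase genes, 9 were lower (8.04%) and 3 of them had a shared shift. Of 224 RING/U-box protein genes, 6 were higher and 1 lower, with 3 shared shifts, and the share called (3.12%) was below the 4.85% of all tested genes.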

How the data were processed

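Poly(A) RNA of 12 rosettes was sequenced in pairs on a strand-keeping library. The authors' processing notes name STAR (version not given in the sources used here), RSEM 1.2.22 and the build TAIR10, and the deposited table gives FPKM for 33323 genes, of which 32835 were found in TAIR10.1. Whether counting used strand is not given in the sources used here. Another 24 deposited columns hold log2 fold changes, their standard errors and p-values from the authors' own DESeq2 comparisons of genotypes, and were not used. Fragment counts were not used and no count model was fitted, and genes near 0.5 FPKM rest on few fragments.

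Genes with at least 0.5 FPKM in 3 or more libraries (19660) were tested on log2(FPKM + 1) with limma 3.58.1 in R 4.3.3 (moderated test with trend, 1 mean per genotype, two-sided, Benjamini-Hochberg adjustment over all tested genes). The contrast was the mean of klu, 35S:KLU1 and 35S:KLU2 minus Col-0. The fit was tested on simulated data. Plants of a genotype were separate individuals. Transcripts were searched in TAIR10.1 with blastn 2.17.0. This reference shares the nuclear chromosomes and gene identifiers of TAIR10, and all coordinates and sequences were read from it.

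Genes were named by rule: KLU, genes at 0 on one side and their neighbours, genes called in all 3 comparisons, the 15 largest shared shifts in each direction with a mean of at least 1 FPKM, markers, and up to 4 called members per list. Others were chosen after their values were seen: the neighbours of SAR2, the chromosome 5 group, the sequence copies, genes called whichever library was left out, PES1, NCED2, AT2G05995, GLYI4 and the cell wall, methyltransferase and RING/U-box lists. The comparison, its members and all lists were chosen with earlier results of these data known. Alternatives were other filters, pseudocount 0.1, a 2-group model, a replicate block, 3 scalings, library weights and leaving out each library.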

Additional observations from a re-analysis of the deposited data

Results flagged for a closer look

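In 34 of the named genes klu differed from the mean of both 35S:KLU lines (limma, Benjamini-Hochberg adjusted p under 0.05 over all tested genes), 21 of them with a shared shift against Col-0. KLU itself differed by -10.92 (klu minus lines, log2(FPKM + 1)).

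Below the lines in klu and with a shared shift were IDA (-0.91), AT1G18020 (-0.82), AT4G04223 (-0.66), AT1G14200 (-0.49), AT2G16586 (-0.45), AT3G60170 (-0.44), GG1 (-0.39), AT1G26800 (-0.39), AT2G07783 (-0.35) and AT4G15030 (-0.33). AT4G04223 and AT2G16586 are the lower genes among these, and klu was farther from Col-0 than the lines in both. Above the lines in klu were CESA5 (0.25), PG2 (0.32), FLA16 (0.34), GPAT3 (0.35), ABCC14 (0.35), PIT1 (0.41), AT1G29670 (0.43), AT1G21010 (0.49), GH9C2 (0.55), ACA1 (0.56) and AT5G48460 (0.59), all lower than Col-0 in every genotype and least so in klu.

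Among the genes checked that had no shared shift, klu was below the lines in PR1 (-3.19), VSP1 (-2.73), JUB1 (-1.80), SARD4 (-0.94) and AT1G30700 (-0.86). It was above them in NRT1.1 (0.66), CYP78A9 (0.85), COR414-TM1 (1.005), ARR5 (1.11), ARR7 (1.15), CBF1 (1.23) and GLN1.4 (1.32).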

How the results depend on the processing

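The count of 954 genes became 10 in the 2-group model, 1442 and 1444 when libraries were scaled by median of ratios and by upper quartile, and 2839 with library weights, and it ranged from 118 to 2581 when 1 library was left out. That of 132 shared shifts became 10, 208, 204 and 210 under the same 4 settings, of which 10, 85, 90 and 132 were among the 132, and ranged from 39 to 724. The 9 genes called in all 3 comparisons ranged from 4 to 11. With the replicate block the counts were 771, 99 and 6. The replicate numbers did not pair the samples: over 18 pairs of libraries with the same number, deviations from the genotype means correlated at -0.159 to 0.133, against -0.145 to 0.173 for other pairs. Under 6 settings (the block, the 3 scalings, library weights and pseudocount 0.1), 64 of the 132 were found every time. Of 59 genes followed through the alternatives, none changed direction where it was tested. All of them were called in the main fit, so a reversal was not likely. Other genes described above, such as GG1, GH9C2 and NCED2, were not among them. The median difference over all genes ran from -0.017 to 0.031 over the scalings and weights. Depth was known only in relative terms, and it limits genes near 0.5 FPKM and those listed at 0.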
